A study of Homo sapiens with 12 samples.

Results

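The 10 genes described here are 8 of the Frizzled receptor genes, FZD1 to FZD8, and the genes of their co-receptors, LRP5 and LRP6. They were taken by name from a table of 58676 genes measured by RNA sequencing in A549, an epithelial cell line grown from a human lung carcinoma. The family was chosen by the values of FZD2, which were strongly lower after bortezomib. The difference of FZD2 under bortezomib is therefore given as a description with no test, and the tests that use bortezomib libraries leave FZD2 out. The tests between lines in vehicle include it. Its vehicle values also entered the choice, so its result there is a description too. A mean of at least 1 FPKM (fragments corrected for gene length and for the depth of the library, a level that can be compared between genes) was reached by 9 of the 10 genes and by 12194 of all genes. FZD4 stayed under it and was not tested.

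The study compared a control A549 line with 2 lines, named KO1 and KO2, that carry a knockout of NFE2L1, a transcription factor of proteasome genes. Cells of each line received DMSO as vehicle or 200 nM bortezomib, a drug that blocks the proteasome, and were taken after 4 h. This gave 6 groups of 2 libraries. The labels do not say how the knockout was made or whether a line is 1 clone. They also do not say whether the 2 libraries of a group came from separate cultures, so the p-values measure the spread between these libraries, which may be technical. In the text the first value of a pair is the library numbered R1 (unnumbered in the control line) and the second is the library numbered R2.

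Frizzled proteins are multi-pass membrane receptors whose extracellular cysteine-rich domain binds Wnt ligands. LRP5 and LRP6 are single-pass co-receptors of the LDL receptor family. A Wnt that bridges a Frizzled and an LRP co-receptor recruits Dishevelled and Axin to the membrane, which stops the destruction of beta-catenin and allows transcription through TCF/LEF factors. Frizzled receptors also signal without LRP5 or LRP6, for example in planar cell polarity. Frizzled proteins are removed from the cell surface by the ubiquitin ligases RNF43 and ZNRF3, and R-spondins with their LGR receptors hold those ligases back.

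The assigned reads per library ranged from 13211608 to 23819258. NFE2L1 was at 72.7 to 189 FPKM in the 4 control libraries and at 8.45 to 50.8 FPKM in the 8 knockout libraries, with no overlap, so each label matched its line. The epithelial markers KRT8, KRT18 and KRT7 had medians of 308, 282 and 487 FPKM over the 12 libraries. The A549 markers NQO1, AKR1B10 and AKR1C1 had medians of 216, 833 and 26.5 FPKM. EPCAM (median 4.3, lowest 1.25 FPKM) and CDH1 (median 3.39, lowest 1.42 FPKM), the other epithelial markers of the list, were low. The alveolar type 2 marker SFTPA1 was listed at 0 in 12 of 12 libraries, and SFTPC, SFTPB and NKX2-1 reached at most 0.13 FPKM. The R2 libraries stood apart from their partners. Reads from mitochondrial genes made up 12.3% to 19.3% of reads in the R2 libraries and 5.44% to 6.8% in the others, in every group alike. The median gene tested had an R2 value 0.728 to 0.897 times its partner's. The receptor genes went the other way: the median ratio of R2 to partner over the 6 groups was 1.26 for FZD2, between 1.64 and 2.1 for the other Frizzled genes, 2.47 for LRP5 and 1.65 for LRP6. In single groups the ratio was over 1 for every member, except 0.553 for FZD8 in KO1 with bortezomib. The 2 libraries of a group thus differed in these genes by as much as several of the treatment effects did, and results on the members are given without and with a term for the replicate number (the replicate block).

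Promoters were looked up for the members, because 6 of the 8 tested were called lower under bortezomib with the replicate block. In that fit 54.9% of all genes were called, and without the block 0 of 8 members were called. The RefSeq table used (GRCh38.p14) held FZD1, FZD4, FZD5, FZD8 and LRP5, 5 of the 10. The stretches just before the annotated start of FZD5, FZD8 and LRP5 are printed 5′ to 3′ on the strand of the gene. These are the members called lower in the control line with the replicate block, 3 of 8, where 32.4% of all genes were called. Capitals mark ATTGG, which is the CCAAT box read on the other strand. FZD5 lies on the minus strand at chr2:207769907-207770156, FZD8 on the minus strand at chr10:35642297-35642546 and LRP5 on the plus strand at chr11:68312341-68312590.
FZD5: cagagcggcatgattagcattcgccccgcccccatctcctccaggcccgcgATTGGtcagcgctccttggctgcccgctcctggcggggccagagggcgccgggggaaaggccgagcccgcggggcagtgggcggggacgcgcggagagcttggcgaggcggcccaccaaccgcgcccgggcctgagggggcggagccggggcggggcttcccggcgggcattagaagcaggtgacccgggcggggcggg
FZD8: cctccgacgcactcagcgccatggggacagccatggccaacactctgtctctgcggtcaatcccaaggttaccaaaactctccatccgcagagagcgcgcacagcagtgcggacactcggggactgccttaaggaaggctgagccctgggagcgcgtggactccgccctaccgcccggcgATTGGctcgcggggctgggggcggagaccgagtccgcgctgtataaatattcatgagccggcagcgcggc
LRP5: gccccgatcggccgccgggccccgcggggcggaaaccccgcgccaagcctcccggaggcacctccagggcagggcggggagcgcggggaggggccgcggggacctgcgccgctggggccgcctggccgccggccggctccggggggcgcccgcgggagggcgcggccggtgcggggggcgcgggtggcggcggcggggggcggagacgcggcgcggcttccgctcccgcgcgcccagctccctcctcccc

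The CCAAT box, searched on both strands, was in 4 of the 5 members (FZD1, FZD4, FZD5 and FZD8, each time on the strand opposite to the gene) and in 32.0% of the 35116 promoters of the table. In FZD5 it lay 199 to 195 bases before the start and in FZD8 70 to 66 bases before it. LRP5 had none. The GC box GGGCGG was in 5 of 5 members and in 42.6% of all promoters, and TATAAA was in FZD8 alone, 29 to 24 bases before the start, against 10.7% of all promoters. These motifs were added after the sequences had been seen. The other motifs, chosen earlier, were the antioxidant response element core TGACNNNGC, the heat shock element core GAANNTTC and the TCF/LEF core CTTTGAT. They are in 10.9%, 5.8% and 2.3% of all promoters, and these letters did not occur in the window of any of the 5 members. The share of G and C was 76.8% in FZD5, 65.2% in FZD8 and 87.2% in LRP5, beside a median of 58.0% over all promoters.

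In vehicle, FZD2 was the most abundant Frizzled mRNA in all 6 libraries. Ranked by the median FPKM in vehicle, FZD2 (66.5) came first, followed by LRP5 (48.7), FZD6 (23.5), LRP6 (23.4) and FZD5 (6.64). FZD7 (3.66), FZD1 (2.88), FZD8 (2.86) and FZD3 (2.79) came next, and FZD4 (1.13) was last. FZD2 was above LRP5 in 4 of 6 libraries, and FZD6 above LRP6 in 3 of 6, so the order of these neighbours was not the same throughout. In both control libraries FZD2 was above LRP5 (64.7 and 130 against 21.9 and 57.8 FPKM). FZD6 was above LRP6 there too (18.5 and 33.4 against 13.8 and 27.1 FPKM), and in the knockout lines the order varied. LRP5 was above FZD6, LRP6 above FZD5 and FZD3 above FZD4 in 6 of 6. FZD7, FZD1, FZD8 and FZD3 followed each other with 2 to 4 of 6 libraries in that order, which gives no order common to the lines. FZD7 was above FZD1 in both control libraries (5.69 and 8.85 against 2.09 and 3.77 FPKM). In both KO1 libraries FZD7 was below FZD1 (1.34 and 3.10 against 2.08 and 4.30 FPKM).

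**Figure D1:**
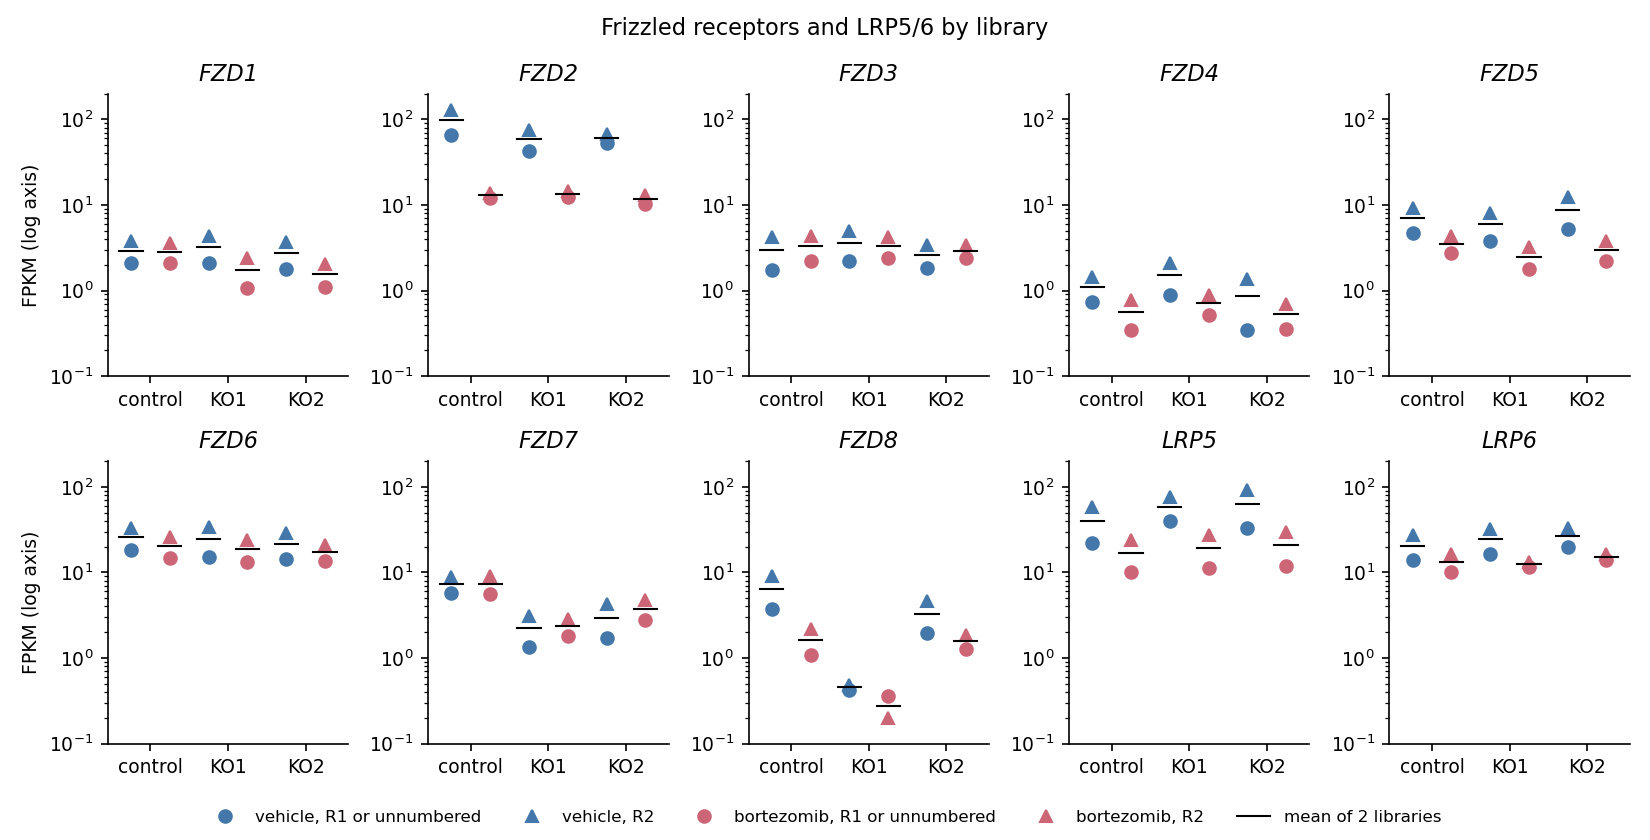
FPKM on a log axis for each of the 10 genes in the 12 libraries, with vehicle in blue, bortezomib in red, R2 libraries as triangles and the mean of the 2 libraries of a group as a bar. FZD2 lies at 42.2 to 130 in vehicle and at 10.3 to 14.5 in bortezomib, FZD7 is lower in both knockout lines, and FZD8 is under 0.5 in all 4 KO1 libraries.

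After bortezomib the order changed at the top. LRP5 (18.0 FPKM, median), FZD6 (17.8), LRP6 (13.7) and FZD2 (12.6) lay close together, and FZD2 was above FZD6 in 6 of 6 vehicle libraries and in 0 of 6 bortezomib libraries. FZD2 was 54% to 66.3% of the summed FPKM of FZD1 to FZD8 in vehicle (median 62.8%) and 21.6% to 36.6% in bortezomib (median 28.4%). The share of FZD6 was 16.7% to 25.8% in vehicle and 35.9% to 46.2% in bortezomib. The sum itself went from 68.2 to 200 FPKM in vehicle to 33.5 to 64.2 FPKM in bortezomib. These shares follow largely from FZD2, whose values chose the family, and are a description. In bulk samples, fewer cells of a type and less RNA per cell cannot be told apart.

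**Figure D2:**
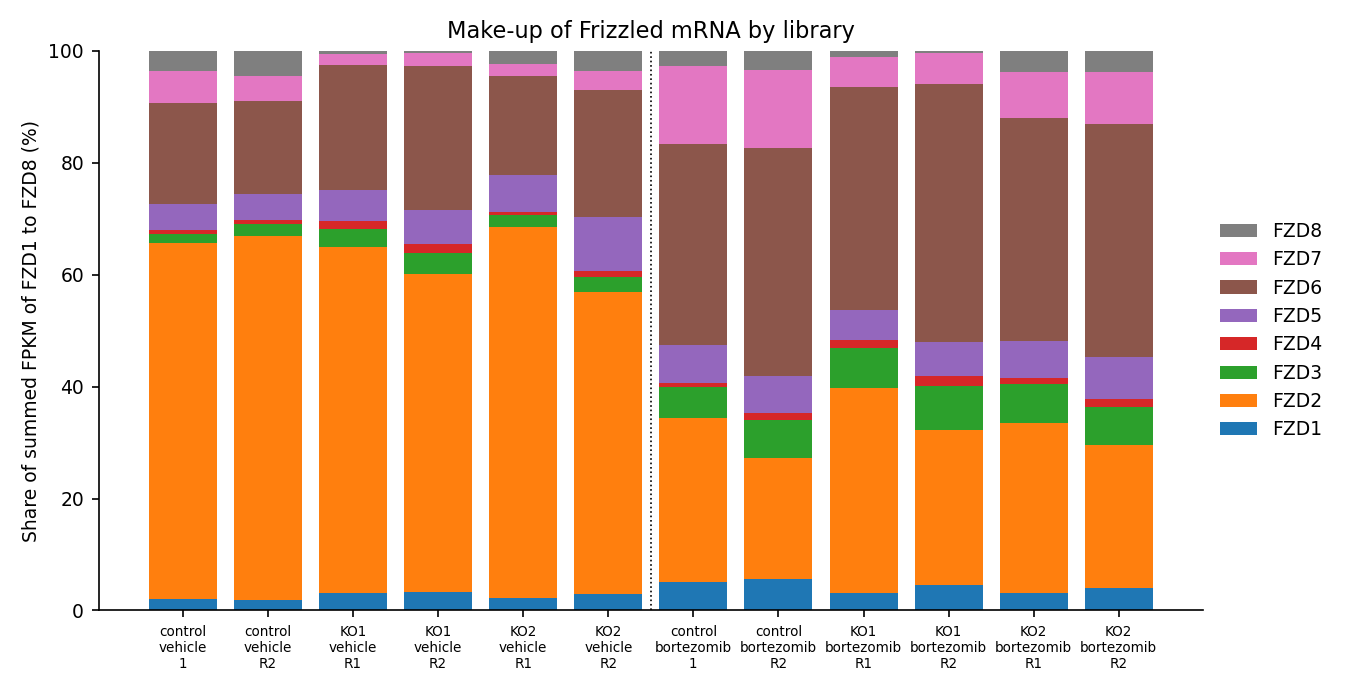
Share of each Frizzled gene in the summed FPKM of FZD1 to FZD8 (percent), 1 bar per library, vehicle to the left of the dotted line and bortezomib to the right. FZD2 (orange) is the largest part of every vehicle bar, at 54% or more, and FZD6 (brown) is the largest part of every bortezomib bar, at 35.9% or more.

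FZD2, a receptor for Wnt5a and other Wnts (ENSG00000180340, chromosome 17, 44557459 to 44559570, plus strand), was at 64.7 and 130 FPKM in the control line in vehicle and at 11.9 and 13.9 FPKM in bortezomib. In KO1 it was at 42.2 and 74.6 FPKM in vehicle and at 12.3 and 14.5 FPKM in bortezomib. In KO2 the values were 53.5 and 68.2 FPKM in vehicle and 10.3 and 12.9 FPKM in bortezomib. Every bortezomib library was below every vehicle library, and the bortezomib values were much closer to each other than the vehicle values. Within a pair of libraries of the same line and number, bortezomib left 10.7% to 29% of the vehicle level. On the log2(FPKM + 1) scale, used for all differences here, control cells differed by -2.74, KO1 by -2.00 and KO2 by -2.29, with an SE of 0.441 each. Among all genes tested, 5.4% had all 6 bortezomib libraries below all 6 vehicle libraries, and FZD2 was the 1 member of the family that did.

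For the other members, the test was limma's moderated test across all 12194 genes, with Benjamini-Hochberg adjustment and a call at an adjusted p under 0.05. For bortezomib against vehicle as the mean of the 3 lines, it called 0 of 8 members without the replicate block, where it called 11.6% of all genes; 4 of 8 (FZD5, FZD8, LRP5 and LRP6) had an unadjusted p under 0.05, and voom on reads recovered from the FPKM called 1 of 8. With the replicate block it called 6 of 8 members, all lower (FZD1, FZD5, FZD6, FZD8, LRP5 and LRP6), where it called 54.9% of all genes. Of all genes tested, 3400 were called lower and 3290 higher. The median difference over the 8 members was -0.545, beside -0.00754 over all genes. In each of the 6 pairs of libraries, bortezomib was the lower one for FZD5, FZD6, FZD8, LRP5 and LRP6, as it was for 23.8% of all genes tested.

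**Figure D3:**
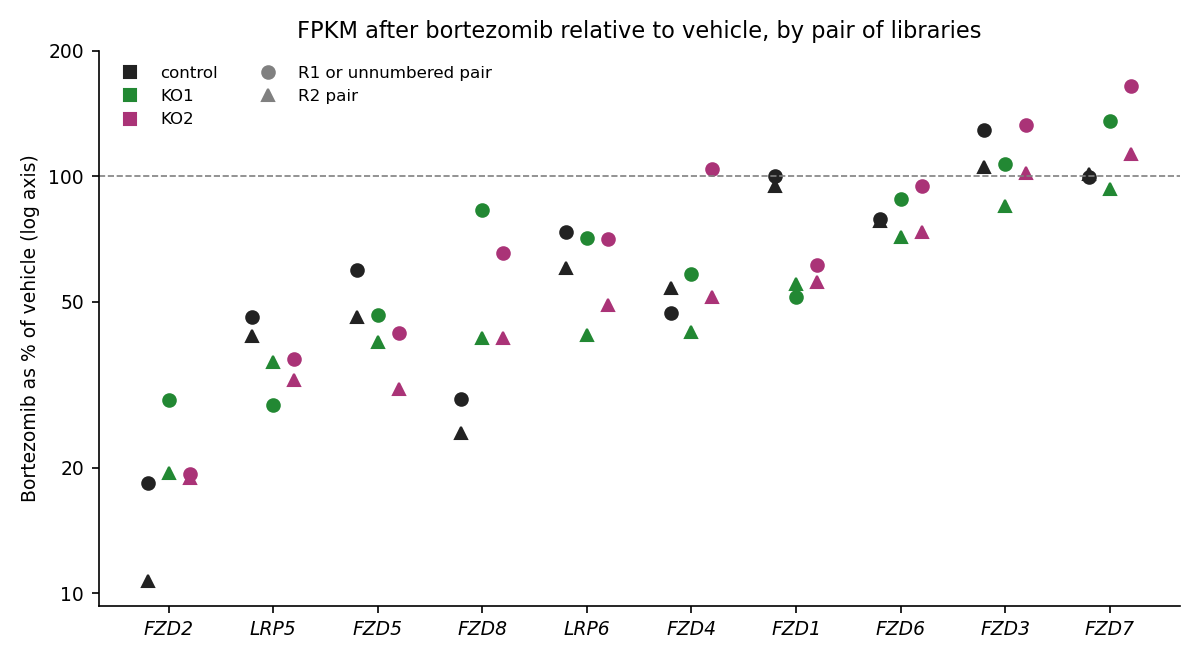
FPKM after bortezomib as a percent of the vehicle library of the same line and replicate number (log axis), for 10 genes and 6 pairs. All 6 points lie under 100% for FZD2, LRP5, FZD5, FZD8, LRP6 and FZD6, whereas FZD3 (85% to 133%) and FZD7 (93% to 165%) lie on both sides.

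Line by line, the calls without the block were 0 of 8 members in the control line (background 0.467% of genes; 1 member with an unadjusted p under 0.05), 0 of 8 in KO1 (0.238%; 0 members) and 0 of 8 in KO2 (0.32%; 1 member). With voom they were 0 in each line. With the block, 3 of 8 members fell in the control line (FZD5, FZD8 and LRP5), where 32.4% of all genes were called. In KO1, 4 of 8 fell (FZD1, FZD5, LRP5 and LRP6), where 27.7% were called, and in KO2 the 4 that fell were FZD1, FZD5, LRP5 and LRP6 again, where 27.0% were called. FZD5 and LRP5 were called in all 3 lines. The share of all genes called in all 3 lines is not given, so this cannot be set against a background.

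LRP5 and LRP6 are the co-receptors that Wnt signalling through beta-catenin needs, and LRP5 is known for its role in bone mass. LRP5 (ENSG00000162337, chromosome 11, 68312609 to 68449275, plus strand) was at 21.9 and 57.8 FPKM in the control line in vehicle and at 10.1 and 23.9 FPKM in bortezomib. In KO1 it was at 39.6 and 76.8 FPKM in vehicle and at 11.2 and 27.5 FPKM in bortezomib, and in KO2 at 33.0 and 92.0 FPKM and then at 12 and 29.8 FPKM. The 2 treatments overlapped, because each R2 library after bortezomib was higher than the lowest vehicle library. Within pairs, 28.3% to 46% of the vehicle level was left. The mean difference was -1.41 (SE 0.436, limma adjusted p = 0.0668), and with the replicate block it had an SE of 0.0903 and an adjusted p of 4.89e-06.

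LRP6 (ENSG00000070018, chromosome 12, 12116025 to 12267012, minus strand) was at 13.8 and 27.1 FPKM in the control line in vehicle and at 10.1 and 16.3 FPKM in bortezomib. In KO1 the values were 16.5 and 32.3 FPKM, then 11.7 and 13.4 FPKM, and in KO2 19.6 and 33.2 FPKM, then 13.9 and 16.3 FPKM. The treatments overlapped here too, and 41.5% to 73.4% of the vehicle level was left within pairs. The mean difference was -0.70 (SE 0.271, limma adjusted p = 0.128; with the replicate block SE 0.117, adjusted p = 0.000882). With the block it was called in KO1 (-0.83, adjusted p = 0.0158) and KO2 (-0.73, adjusted p = 0.0283) and missed the threshold in the control line (-0.55, adjusted p = 0.0627). The call in KO1 was lost without either of its R2 libraries (adjusted p up to 0.158), and that in KO2 without any 1 of 3 of its 4 libraries (up to 0.206). LRP5 was above LRP6 in 6 of 6 vehicle libraries and in 3 of 6 bortezomib libraries, the R2 library of each line.

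FZD5 (ENSG00000163251, chromosome 2, 207762586 to 207769563, minus strand), a receptor with a known part in beta-catenin signalling, was at 4.65 and 9.30 FPKM in the control line in vehicle and at 2.77 and 4.28 FPKM in bortezomib. In KO1 it went from 3.81 and 8 FPKM to 1.77 and 3.21 FPKM, and in KO2 from 5.29 and 12.3 FPKM to 2.22 and 3.78 FPKM. One bortezomib value, 4.28 FPKM, lay above the lowest vehicle value, so the groups overlapped slightly. The mean difference was -0.98 (SE 0.28, limma adjusted p = 0.0507, just outside the threshold; with the replicate block SE 0.0968, adjusted p = 4.89e-05). By line, control cells gave -0.77, KO1 -0.95 and KO2 -1.22. The call in the control line with the block was lost without the vehicle R2 library (-0.585, adjusted p = 0.123) or without the bortezomib R2 library (-0.585, adjusted p = 0.122), and that in KO1 without its bortezomib R2 library (adjusted p = 0.0501).

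FZD8 (ENSG00000177283, chromosome 10, 35638249 to 35642278, minus strand) encodes the receptor whose cysteine-rich domain has been crystallised with a bound Wnt. It was at 3.75 and 8.97 FPKM in the control line in vehicle and at 1.09 and 2.17 FPKM in bortezomib. In KO2 it was at 1.97 and 4.59 FPKM in vehicle and at 1.29 and 1.88 FPKM in bortezomib. In KO1 it was already low, at 0.429 and 0.481 FPKM in vehicle and at 0.357 and 0.197 FPKM in bortezomib, which rests on 24 and 36 reads and then 19 and 15 reads. The mean difference was -0.76 (SE 0.238, limma adjusted p = 0.0696; with the replicate block SE 0.145, adjusted p = 0.002). With the block the difference in the control line was -1.42 (adjusted p = 0.00347), while KO2 (-0.67, adjusted p = 0.0803) and KO1 (-0.19, adjusted p = 0.605) were not called. The added 1 FPKM compresses differences at levels as low as those of KO1. By voom with the block, on the log2 scale of reads, FZD8 differed by -1.94 in the control line (adjusted p = 3.7e-06), by -0.962 in KO2 (adjusted p = 0.0111, called) and by -0.862 in KO1 (adjusted p = 0.235). The call in the control line was lost without its vehicle R2 library (adjusted p = 0.067) or its bortezomib R2 library (adjusted p = 0.0639).

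FZD6 and FZD1 moved less. FZD6 (ENSG00000164930, chromosome 8, 103298433 to 103332866, plus strand), known for planar cell polarity in skin and hair, ranged from 14.3 to 33.8 FPKM in vehicle and from 13.4 to 26.2 FPKM in bortezomib, with a wide overlap. Within pairs 71.6% to 94.6% of the vehicle level was left, lower in 6 of 6 pairs. The mean difference was -0.30 (SE 0.323, limma adjusted p = 0.621; with the replicate block SE 0.0883, adjusted p = 0.0173). That call was lost without any 1 of 3 libraries: KO1 bortezomib R2 (adjusted p = 0.0591), KO2 bortezomib R2 (0.0633) or KO2 vehicle R2 (0.0627).

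FZD1 (ENSG00000157240, chromosome 7, 91264364 to 91271326, plus strand) is a receptor close in sequence to FZD2 and FZD7. It was at 2.09 and 3.77 FPKM in the control line in vehicle and at 2.09 and 3.58 FPKM in bortezomib, so bortezomib left 94.9% to 100% of the level. In KO1 it went from 2.08 and 4.30 FPKM to 1.07 and 2.37 FPKM, and in KO2 from 1.77 and 3.68 FPKM to 1.09 and 2.05 FPKM, which was 51.2% to 61.2% of the vehicle level. With the replicate block FZD1 was called in KO1 (-0.61, adjusted p = 0.0118) and in KO2 (-0.51, adjusted p = 0.0256) and not in the control line (-0.0283, adjusted p = 0.895). The test of the difference itself, the interaction of knockout and bortezomib, gave -0.54 (SE 0.521, limma adjusted p = 1; with the block SE 0.17, adjusted p = 0.292) and was not called. The 2 calls were each lost when a library of that line was left out, with adjusted p up to 0.0851 in KO1 (3 of its 4 libraries) and up to 0.199 in KO2 (4 of 4).

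FZD3, FZD7 and FZD4 complete the family under bortezomib. FZD3 (ENSG00000104290, chromosome 8, 28494205 to 28574268, plus strand), known for axon guidance, ranged from 1.72 to 4.93 FPKM in vehicle and from 2.22 to 4.39 FPKM in bortezomib, with a difference of 0.0794 (SE 0.26, limma adjusted p = 0.887; with the block 0.473). FZD7 (ENSG00000155760, chromosome 2, 202034587 to 202038445, plus strand), a receptor of many stem and epithelial cells, had a difference of 0.141 (SE 0.25, limma adjusted p = 0.779; with the block 0.198). FZD4 (ENSG00000174804, chromosome 11, 86945679 to 86955391, minus strand), the receptor of Norrin in retinal vessels, was at 0.346 to 2.12 FPKM in vehicle and 0.347 to 0.897 FPKM in bortezomib, lower in 5 of 6 pairs. FZD4 overlaps PRSS23 on the opposite strand, and 18.43% of the 50-base windows of its transcript also occur in PRSS23 or other genes. Whether reads were counted by strand is not given in the sources used here, so its values are uncertain. LRP6 (with BCL2L14) and FZD6 (with BAALC-AS1) also overlap genes on the opposite strand. FZD2 shares 2.67% of its windows with other genes, mainly FZD1 and FZD7, and each other member at most 1.02%.

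The interaction test, of whether the response to bortezomib differed between knockout and control, called none of the tested members. Limma called 0 of 8 members and 0.0% of all genes, without and with the replicate block. As it called no gene at all, this does not show that the responses were alike. Without the block 0 members, and with it 2 (FZD1 and FZD8), had an unadjusted p under 0.05, and voom called 0 of 8. The difference was 0.99 for FZD8 (with the block SE 0.308, adjusted p = 0.28), with -1.42 in the control line and -0.19 and -0.67 in the knockout lines. For FZD2 the interaction is given as a description and was 0.60 (SE 0.54).

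The second question of the design is how the lines differ in vehicle. Without the replicate block, limma called 0 of 9 members in KO1 (0.213% of all genes were called; 2 members with an unadjusted p under 0.05, FZD7 and FZD8), 0 of 9 in KO2 (0.23%; 1 member, FZD7) and 0 of 9 for the mean of both lines (0.344%; 2 members), and voom called 0 in each. With the block, FZD7 and FZD8 were called lower in KO1, where 5.95% of all genes were called. FZD7 alone was called in KO2 (4.91%), and FZD7 and FZD8 for the mean (6.18%). With voom and the block, 4 of 9 members were called for the mean: FZD2, FZD7 and FZD8 (lower) and LRP5 (higher). No share of all genes is given for that fit, so this count cannot be set against a background. It includes FZD2, whose vehicle values also entered the choice of the family.

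FZD7 was at 5.69 and 8.85 FPKM in the control line, at 1.34 and 3.10 FPKM in KO1 and at 1.70 and 4.22 FPKM in KO2, all in vehicle. All 4 knockout libraries were below both control libraries, as for 3.38% of all genes tested. The same held in bortezomib, with 5.67 and 8.97 FPKM in the control line, 1.82 and 2.88 FPKM in KO1 and 2.81 and 4.76 FPKM in KO2 (6.66% of all genes). The mean difference of the knockout lines in vehicle was -1.25 (SE 0.375, limma adjusted p = 0.495). With the replicate block it was -1.18 (SE 0.159, adjusted p = 0.00365), with -1.32 in KO1 (adjusted p = 0.00401) and -1.05 in KO2 (adjusted p = 0.0108). In bortezomib, 0 of 8 members were called without the block (0.164% of genes; 1 member, FZD7, with an unadjusted p under 0.05; voom 0), and with it FZD7 alone (7.66% of genes) at -0.98 (adjusted p = 0.0087).

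FZD8 was lower in KO1 than in the control line without overlap. Its KO1 means were 0.455 FPKM in vehicle and 0.277 FPKM in bortezomib. It thus passed the filter of a mean of 1 FPKM only through the control line and KO2, which partly fixed the direction of this difference. Both KO1 libraries (0.429 and 0.481 FPKM in vehicle) were far below the control line (3.75 and 8.97 FPKM), while KO2 (1.97 and 4.59 FPKM) overlapped it. The difference from the control line was -2.24 in KO1 (SE 0.412, limma adjusted p = 0.0842; with the replicate block -2.52, SE 0.295, adjusted p = 0.00211). In KO2 it was -0.76 (adjusted p = 1; with the block -1.04, SE 0.295, adjusted p = 0.0894). Voom, on the log2 scale of reads, gave -3.64 in KO1 (adjusted p = 0.0928), and with the block -3.93 (adjusted p = 2.08e-06). By voom with the block FZD8 was also called in KO2 (-1.16, adjusted p = 0.00963). The difference between KO1 and KO2 was not tested.

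In the fit with the block, the numbers tie the knockout lines to the control line through the R2 libraries only, since no control library is numbered R1. Without the control vehicle R2 library, the differences of FZD7 (-1.20, adjusted p = 0.189) and FZD8 (-1.43, adjusted p = 0.331) for the mean of the knockout lines were no longer called, and neither were those of FZD7 (adjusted p = 0.13) and FZD8 (0.133) in KO1. The call of FZD7 in KO2 was lost without that library (adjusted p = 0.271) or either KO2 vehicle library (0.0535 and 0.061). Without the control bortezomib R2 library, or without the KO1 bortezomib R2 library, FZD7 was no longer called in bortezomib (adjusted p = 0.155 and 0.0519).

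**Figure D4:**
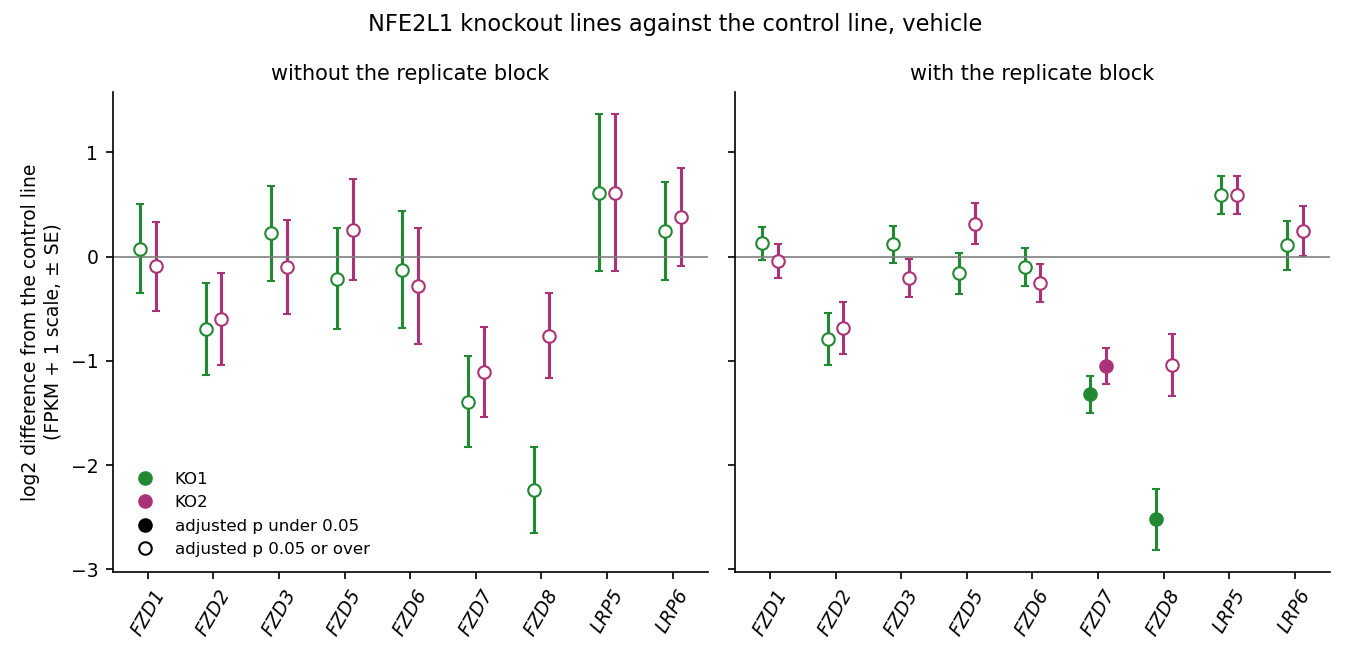
Difference of each knockout line from the control line in vehicle (log2(FPKM + 1), ± SE) for the 9 members tested, without the replicate block on the left and with it on the right, with filled points where the adjusted p is under 0.05. FZD7 is lower in both lines, FZD8 is at -2.24 or -2.52 in KO1, and the other members lie between -0.79 and 0.615 apart from FZD8 in KO2.

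FZD2 itself was not called between the lines in vehicle by limma on FPKM: the knockout mean differed by -0.65 (SE 0.382, limma adjusted p = 1; with the replicate block -0.74, SE 0.224, adjusted p = 0.0917). Voom with the block gave -0.763 for the mean and called FZD2 there and in both knockout lines. These vehicle libraries also enter the comparison that chose the family. The values of FZD2 in vehicle are therefore a description, and these calls are no support for a difference. LRP5 was at 0.615 above the control line (SE 0.654, adjusted p = 1; with the block 0.59, SE 0.166, adjusted p = 0.0739). FZD1, FZD3, FZD5, FZD6 and LRP6 differed by at most 0.313 for the mean of the lines without the block, and none was called in either fit.

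The genes whose pattern over the 12 libraries was most like that of FZD2 were AGPAT1 (Pearson r = 0.983), TLCD1 (0.983), AXL (0.981), GALNT11 (0.981) and TMEM187 (0.98), out of 12193 other genes tested. The 12 libraries share 6 groups, 3 lines and the replicate number, so these values are a description. AXL, a receptor tyrosine kinase, was at 82 to 212 FPKM in vehicle and at 23.9 to 40.7 FPKM in bortezomib. Within the family, FZD5 was most like FZD2 (r = 0.844, at place 423), followed by LRP5 (0.78) and LRP6 (0.768), and FZD7 (0.107) and FZD3 (0.0911) were least like it.

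Around the receptors, a list of 94 further Wnt pathway genes was followed, of which 54 had a mean of at least 1 FPKM. Under bortezomib, as the mean of the 3 lines, 7 of the 54 rose and 5 fell without the replicate block (11.6% of all genes were called), and with it 22 rose and 15 fell (54.9% of all genes). The 12 genes called without the block were also called with it. The median difference of the 54 was 0.111. NOTUM and AXIN2, 2 of the 7 that rose, and TCF7, which was called with the block, had a mean under 1 FPKM in vehicle. They passed the filter only through their bortezomib libraries, so these 3 rises were partly fixed by the filter. On the ligand side, WNT7B, 1 of 4 Wnt genes tested, fell from 30.7 to 101 FPKM in vehicle to 8.33 to 23.1 FPKM in bortezomib (-1.70, SE 0.274, limma adjusted p = 0.00498), without overlap. LGR4, the R-spondin receptor, had the largest fall of the list, from 38.1 to 116 FPKM to 4.56 to 25.5 FPKM (-2.50, SE 0.357, adjusted p = 0.00291), again without overlap. Control cells gave -2.17, KO1 -2.96 and KO2 -2.37.

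Of the other Wnt receptors, 0 of 4 were called without the block (1 with it, FZD9). Beside the counts of these smaller lists, 11.6% of all 12194 genes were called without the block (591 higher, 824 lower). With it 54.9% were called (3290 higher, 3400 lower). FZD9, named here after its values were seen, was higher in bortezomib, at 2.4 to 9.25 FPKM, than in vehicle, at 1.01 to 4.51 FPKM, with an overlap between lines (1.04, SE 0.299, limma adjusted p = 0.053; with the block 5.89e-05). FZD10 was at 0.0492 FPKM or less in all 12 libraries. Among the extracellular inhibitors, 2 of 7 rose and 1 fell, and with the block 2 rose and 3 fell (SFRP1, DKK1 and DKK3). SFRP1, a secreted protein with a Frizzled-like domain that binds Wnts, fell by 1.34 on the log2 scale (SE 0.323, adjusted p = 0.0282). NOTUM, a carboxylesterase that removes the lipid from Wnts, went from 0.0239 to 0.443 FPKM in vehicle (mean 0.24) to 0.802 to 3.22 FPKM in bortezomib (mean 1.77), a difference of 1.10 (SE 0.231, adjusted p = 0.0161) that its filtering partly fixed. KREMEN1, a receptor of the Dickkopf inhibitors that acts on LRP6, rose by 0.827 (SE 0.167, adjusted p = 0.0135).

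Inside the cell, 3 of 16 genes of the Dishevelled and destruction complex list rose without the block and 0 fell (10 and 1 with it): AXIN2 (0.916, SE 0.13, limma adjusted p = 0.00289), DVL3 (0.767, adjusted p = 0.0454) and AXIN1 (0.689, adjusted p = 0.0478). For this list and those below, the share of all genes called was 11.6% without the block and 54.9% with it. AXIN2 went from 0.399 to 0.695 FPKM in vehicle to 1.27 to 2.89 FPKM in bortezomib with no overlap, on means of 0.54 and 1.95 FPKM, so it too passed the filter through bortezomib alone. Of 10 TCF/LEF factors and cofactors, TCF7L1, mostly a repressor, rose (0.916, adjusted p = 0.0198), and TCF7L2 (-0.68, adjusted p = 0.0337) and the beta-catenin cofactor PYGO2 (-0.94, adjusted p = 0.00655) fell. Among 9 tested genes known as Wnt targets, 3 rose (AXIN2, NOTUM and NKD2, which binds Dishevelled, at 0.973 with adjusted p = 0.00613) and 0 fell. With the block 5 rose and 2 fell, CCND1 and DKK1. As AXIN2 and NOTUM passed the filter only through bortezomib, these counts do not support a direction of the list. NKD2 had means of 2.22 FPKM in vehicle and 5.26 FPKM in bortezomib, and CCND1 had means of 68.3 FPKM and 31.3 FPKM. The calls of AXIN1, DVL3, SFRP1, TCF7L1 and TCF7L2 without the block were each lost in 5 to 12 of the 12 fits that left out 1 library, with adjusted p up to 0.134, and with the block they were kept in every one. Under the 5 other settings without the block they were kept in 2 to 4.

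**Figure D5:**
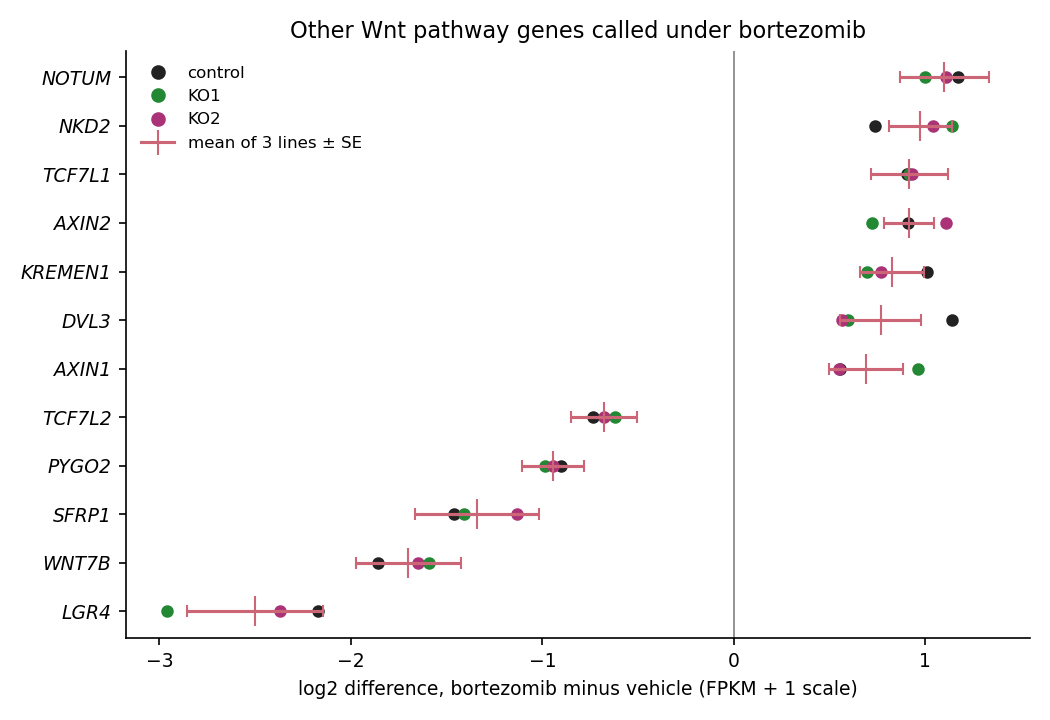
Difference between bortezomib and vehicle (log2(FPKM + 1)) for the 12 other Wnt pathway genes called for the mean of the 3 lines without the replicate block, with 1 point per line and the mean ± SE in red. The 3 lines lie on the same side of 0 for each gene, from LGR4 at -2.50 to NOTUM at 1.10.

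Among the markers of other cell types, COL1A1, a collagen gene of fibroblasts, moved with the treatment. The summed level of the 7 markers of immune, fibroblast and endothelial cells was 1.72 to 5.45 FPKM in the vehicle libraries and 6.17 to 23.5 FPKM in the bortezomib libraries. COL1A1 made up nearly all of it, at 1.42 to 23.3 FPKM, and rose by 1.77 on the log2 scale (SE 0.302, limma adjusted p = 0.00623). COL3A1, DCN, PECAM1, CDH5, PTPRC and CD3E were at 0.225 FPKM or less in every library, and PTPRC was listed at 0 in 10 of 12 and CD3E in 9 of 12. The part of these values in the results above was not tested.

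Between the knockout lines and the control line in vehicle, 1 of the 54 pathway genes was called without the block (0.344% of all genes were called), RSPO3, a secreted R-spondin. RSPO3 was at 91.6 and 140 FPKM in the control line, at 16.3 and 14.1 FPKM in KO1 and at 33.1 and 24.5 FPKM in KO2, with no overlap (-2.39, SE 0.358, limma adjusted p = 0.0297; with the block -2.84, adjusted p = 9.97e-05). The call without the block was lost in 12 of 12 fits that left out 1 library, with adjusted p from 0.0544 to 0.389, and with the block it was kept in all of them. With the block, 5 of the 54 were higher and 5 lower (6.18% of all genes). Those that differed by at least 1 were RSPO3, SFRP1 (-1.26, adjusted p = 0.0189), PTK7 (-1.15, adjusted p = 0.00834), a Wnt co-receptor of planar cell polarity, LGR6 (1.57, adjusted p = 0.00358), an R-spondin receptor, and CCND1 (1.02, adjusted p = 0.0413), the cyclin D1 gene. Without the block SFRP1 (-0.73, adjusted p = 1), PTK7 (-0.952, adjusted p = 0.371), LGR6 (1.16, adjusted p = 1) and CCND1 (0.874, adjusted p = 1) were not called, and SFRP1 turned to 0.209 when the control vehicle R2 library was left out. LGR6 had a mean of 0.3 FPKM in the control line and 1.95 FPKM in the knockout lines, so it passed the filter only through the latter, which partly fixed its direction. With the block and without the control vehicle R2 library the calls of SFRP1 (-0.398), PTK7 (-0.811), LGR6 (1.64) and CCND1 (0.645) were lost. Of the 12 fits with the block that left out 1 library, the call was lost in 5 for CCND1, 3 for SFRP1, 2 for PTK7 and 1 for LGR6. SFRP1 was called in 4 of the 5 settings with the block.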

How the data were processed

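The deposited FPKM (1 column per library, with a gene length in bases, per the file headers) were the authors' values. The submitters' processing notes name CASAVA, STAR 2.5, HTSeq 0.6.1, DESeq2 and hg19, with no roles. The positions printed are those of the table, which match GENCODE 29 (GRCh38) for 10 of 10 members and 95.2% of genes. FPKM times length gave whole reads for 100% of values (within 0.1 read), 13211608 to 23819258 per library. Log2(FPKM + 1) was fitted with limma 3.58.1 in R 4.3.3 (1 mean per group, 12 libraries, eBayes with trend), keeping genes whose mean FPKM was 1 or more, after a test on simulated data.

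The labels state no block, and the libraries were paired here by replicate number. Differences between R2 and its partner correlated between groups across genes (r 0.696 to 0.89 over 15 pairs of groups). This shows a shift that the R2 libraries share, and not what the numbers stand for. The block had the levels R1, R2 and unnumbered. Alternatives were another form of the block, a pseudocount of 0.1, no filter, rescaling, quantile normalization, voom on recovered reads and leaving out each library. Rescaling and quantile normalization with the block were added after the data were seen. The members and lists were chosen with earlier results of these data known. All members were named, and of the pathway list the genes called without the block, or with it at a size of at least 1 (in all 3 lines for bortezomib).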

Additional observations from a re-analysis of the deposited data

How the results depend on the processing

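The count of members called depended on the replicate block. With the block as printed above the counts were 3, 4, 4 and 6 of 8 for bortezomib in the control line, KO1, KO2 and their mean, 2, 1 and 2 of 9 for KO1, KO2 and their mean against control in vehicle, and 1 of 8 in bortezomib. They were 3, 4, 4, 6, 3, 2, 3 and 2 with the unnumbered libraries set on the level of R1, 3, 4, 4, 6, 2, 1, 2 and 1 with rescaling and the block, and 3, 4, 4, 6, 3, 2, 3 and 1 with quantile normalization and the block. With voom and the block they were 4, 4, 5, 6, 3, 3, 4 and 3. Without the block they were 0 in all 8, except 1 (pseudocount 0.1), 2 (rescaled) and 1 (voom) for the mean bortezomib effect. Leaving out 1 library gave 0 to 4, 0 to 4, 0 to 4, 0 to 6, 0 to 3, 0 to 1, 0 to 3 and 0 to 1. Of these, the fits with the block gave 1 to 4, 1 to 4, 2 to 4, 5 to 6, 0 to 3, 0 to 1, 0 to 3 and 0 to 1, and those without it gave 0, except 0 to 2 for the mean bortezomib effect. No member changed direction in a called comparison. The difference of SFRP1 between knockout and control in vehicle without the block was -1.67 to 0.209 when 1 library was left out, and turned to 0.209 without the control vehicle R2 library. The cause was not tested. The interaction called 0 of 8 throughout. A share of all genes called is given only for limma without the block and with the block as printed above. The counts of the other settings therefore have no background beside them. In vehicle, the calls of voom with the block include FZD2, whose vehicle values entered the choice of the family.

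With 2 libraries a group, leaving 1 out assumes that the lone library varies like the other groups. Depth limits FZD8 in KO1 (15 to 36 reads) and FZD4 (36 to 291 reads).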
